A study of Mus musculus with 6 samples.

Results

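The genes described are the 3 mouse teashirt genes, Tshz1, Tshz2 and Tshz3, and 6 genes whose products are known cofactors of teashirt proteins: the corepressor genes Ctbp1 and Ctbp2, the histone deacetylase genes Hdac1 and Hdac2, Apbb1, which encodes FE65, and Set. They were taken by symbol from the gene table, where all 9 of the 9 names were found among 23420 rows, and all 9 passed the filter on low counts that left 14618 genes for testing. The libraries came from neocortex of mouse embryos at embryonic day 18.5, 3 from embryos with the genotype Tshz3 mutant and 3 from wild type. Each library was a pool of cortices from 3 to 4 embryos taken from several litters. In the sample titles and count columns, the 3 libraries with the mutant genotype are named KO. The sources used here do not give the allele, its zygosity, the strain or the part of Tshz3 that was altered, and they name no treatment.

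Teashirt proteins are zinc finger and homeobox transcription factors named after a homeotic gene of Drosophila, and they act mostly as transcriptional repressors. They recruit the CtBP corepressors and class I histone deacetylases, which remove acetyl groups from histones and so keep chromatin closed. FE65 is an adaptor that binds the cytoplasmic tail of the amyloid precursor protein, and it can bring teashirt proteins together with SET, a histone chaperone that shields histones from acetylation. In the mouse, Tshz3 is known for roles in cortical projection neurons, in ureter smooth muscle and in the brainstem circuits for breathing.

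The promoters of Tshz3 and Tshz2 are shown because these genes, with Ctbp2, are those of the 9 whose libraries did not overlap between genotypes. The sequences of the Ctbp2 windows are not shown. Each window runs from 250 bases before to 50 bases after the RefSeq start site on the plus strand of GRCm38.p6, at chr7:36697868-36698167 for Tshz3 and chr2:169632259-169632558 for Tshz2. Capitals mark the GC box GGGCGG on either strand, so that a match on the other strand reads CCGCCC.
Tshz3: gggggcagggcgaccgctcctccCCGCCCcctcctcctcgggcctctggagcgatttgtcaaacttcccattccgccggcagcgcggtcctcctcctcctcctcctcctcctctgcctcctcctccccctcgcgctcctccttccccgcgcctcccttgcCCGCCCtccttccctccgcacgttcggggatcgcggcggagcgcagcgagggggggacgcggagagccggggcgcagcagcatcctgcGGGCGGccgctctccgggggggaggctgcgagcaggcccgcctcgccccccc
Tshz2: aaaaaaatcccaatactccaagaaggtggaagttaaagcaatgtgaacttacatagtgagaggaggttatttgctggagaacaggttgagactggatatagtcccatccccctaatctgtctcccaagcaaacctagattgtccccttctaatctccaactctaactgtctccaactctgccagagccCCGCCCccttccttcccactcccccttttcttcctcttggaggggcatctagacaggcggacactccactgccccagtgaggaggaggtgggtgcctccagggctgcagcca
The Tshz3 window was 76.0% G and C with 33 CpG dinucleotides and 3 GC boxes. The Tshz2 window was 52.0% G and C with 2 CpG dinucleotides and 1 GC box. The median over 32851 RefSeq promoter windows of the same length was 52.7% G and C and 7 CpG dinucleotides, and 35.7% of them held GGGCGG on either strand. The letters CACGTG, the E-box core, and TATAAA, the TATA box, were in neither of these windows, and 7.15% and 13.6% of all windows held them. Of the Ctbp2 windows, chr7:133015198-133015497 held 2 matches to TATAAA and 0 to GGGCGG. The Ctbp2 window at chr7:133081811-133082110 held 0 matches to either. A match in these letters is a description of the sequence and not a binding site.

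Tshz3 transcript was present at similar or slightly higher levels in the libraries labelled mutant. Tshz3 lies on the plus strand of chromosome 7 from 36698118 to 36773553 of GRCm38, the assembly behind mm10. Mutant-labelled libraries 1, 2 and 3 had 1906, 2232 and 1970 Tshz3 reads, or 89.8, 93.1 and 99.2 CPM (reads per 1000000, scaled to effective library size), against 1659, 1719 and 1640 reads, or 78.7, 83.0 and 89.3 CPM, in wild-type libraries 1, 2 and 3. Every mutant-labelled library lay above every wild-type one, with the lowest mutant-labelled value just above the highest wild-type value. The means were 94.0 ± 4.77 CPM in mutant-labelled and 83.7 ± 5.34 CPM in wild-type libraries (SD, n = 3 each).

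The fold change of Tshz3 was 1.12, or 0.17 on the log2 scale (SE 0.07, 95% interval 0.01 to 0.33), with adjusted p = 0.669 in edgeR's quasi-likelihood test. With the library number as a block the log2 fold change was also 0.17 (SE 0.04, interval 0.07 to 0.27), with edgeR adjusted p = 0.0525, just short of the threshold of 0.05. Of the exonic bases annotated for Tshz3, 90.3% lie in 1 exon of 4926 bases, which also holds 98.8% of the coding bases. The table gives 1 count for the whole gene, so it does not show which part of the transcript the reads came from and does not check the genotype labels.

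The other 2 teashirt genes differed from each other in how far the genotypes stood apart. Tshz2, on the plus strand of chromosome 2 from 169633013 to 170071816, was 35.3, 37.2 and 39.5 CPM in mutant-labelled libraries 1 to 3 and 31.2, 27.2 and 28.9 CPM in wild-type libraries 1 to 3. The groups did not overlap, and the gap between the lowest mutant-labelled and the highest wild-type library was wider than for Tshz3. The means were 37.3 ± 2.12 CPM in mutant-labelled and 29.1 ± 2.01 CPM in wild-type libraries (SD, n = 3 each), a fold change of 1.28.

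Tshz2 had a log2 fold change of 0.36 (SE 0.08, 95% interval 0.17 to 0.54), which did not pass in the unpaired test (edgeR adjusted p = 0.283) and rose in the blocked one (0.36, SE 0.07, edgeR adjusted p = 0.0156). The blocked call was lost without pair 3 (edgeR adjusted p = 0.299). Tshz2 shares 65.2% of its exonic bases, 5076 of 7781, with Gm26883, a non-coding gene on the opposite strand that was not analysed here. The libraries were made with a stranded kit, but how strand was handled in the counting is not given, so reads of Tshz2 and of its antisense partner may not be told apart. A630075F10Rik, a second antisense gene that overlaps 175 exonic bases of Tshz2, had 25, 31 and 23 reads in mutant-labelled libraries and 28, 39 and 15 reads in wild-type libraries.

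Tshz1, on the minus strand of chromosome 18 from 84011627 to 84087706, was 41.9, 41.4 and 45.6 CPM in mutant-labelled libraries 1 to 3 and 42.1, 35.9 and 43.9 CPM in wild-type libraries 1 to 3. These groups overlapped, with wild-type library 2 standing below the other 5 libraries. Its log2 fold change was 0.08 (SE 0.09, 95% interval −0.13 to 0.29; edgeR adjusted p = 0.931, or 0.54 with the block). Within the family, Tshz3 made up 53.9 ± 0.242% of teashirt reads in mutant-labelled and 54.5 ± 2.56% in wild-type libraries (SD, n = 3 each). The Tshz2 share was 21.4 ± 0.256% in mutant-labelled and 19.0 ± 1.40% in wild-type libraries, and the Tshz1 share was 24.7 ± 0.477% in mutant-labelled and 26.5 ± 1.66% in wild-type libraries. The Tshz3 share had no steady direction, since it was higher by 0.527 percentage points in mutant-labelled libraries without wild-type library 2.

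**Figure D1:**
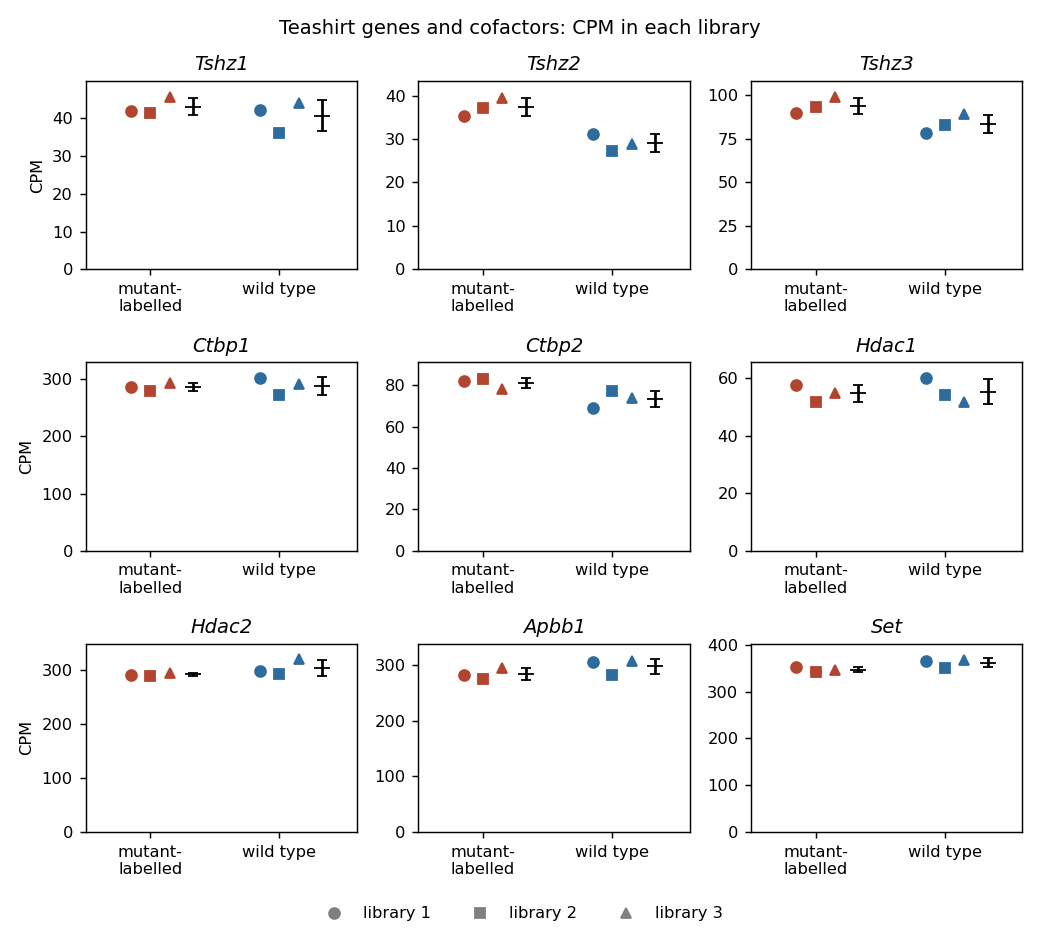
CPM of each of the 9 genes (vertical axes, from 0) in mutant-labelled (red) and wild-type (blue) libraries, with symbols for library numbers 1 to 3 and black bars for the mean ± SD of 3 libraries. Tshz2, Tshz3 and Ctbp2 are higher in every mutant-labelled library than in any wild-type library, while the groups of the other 6 genes overlap.

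The CtBP genes encode corepressors that bind short peptide motifs in their partners and bridge them to histone-modifying enzymes. Ctbp2, on the minus strand of chromosome 7 from 132987563 to 133124354, was 82.0, 82.9 and 78.2 CPM in mutant-labelled libraries 1 to 3 and 68.9, 77.0 and 73.9 CPM in wild-type libraries 1 to 3. The groups did not overlap, though mutant-labelled library 3 was close to wild-type library 2. The means were 81.0 ± 2.53 CPM in mutant-labelled and 73.3 ± 4.06 CPM in wild-type libraries (SD, n = 3 each).

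Ctbp2 had a log2 fold change of 0.15 (SE 0.06, 95% interval 0.0027 to 0.29) with edgeR adjusted p = 0.687, and 0.138 with the block, so it passed neither fit. In the blocked fit without pair 2, Ctbp2 and Tshz3 passed (edgeR adjusted p = 0.0352 and 0.0209), but that fit called 1874 of 14628 genes. Some annotated Ctbp2 exons, 314 of 6220 bases, are shared with transcripts of the neighbouring receptor gene Fgfr2 on the same strand. Fgfr2 itself was 49.6, 39.7 and 40.0 CPM in mutant-labelled libraries 1 to 3 and 44.0, 40.1 and 41.2 CPM in wild-type libraries 1 to 3, with overlapping groups. The gene-level count does not separate the CtBP2 protein from RIBEYE, the synaptic ribbon protein made from another start of the same gene.

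Ctbp1, on the minus strand of chromosome 5 from 33247723 to 33274994, was 287, 280 and 293 CPM in mutant-labelled libraries 1 to 3 and 301, 272 and 292 CPM in wild-type libraries 1 to 3. The mutant-labelled values lay inside the wild-type range. Its log2 fold change was −0.01 (SE 0.06, 95% interval −0.14 to 0.12; edgeR adjusted p = 0.989), and that sign turned under some settings. Ctbp2 gave 22.1 ± 0.907% of CtBP reads in mutant-labelled and 20.3 ± 1.74% in wild-type libraries (SD, n = 3 each), and these shares overlapped between the groups.

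The class I deacetylases HDAC1 and HDAC2 are the catalytic subunits of the NuRD, Sin3 and CoREST complexes. Hdac2, on the plus strand of chromosome 10 from 36974544 to 37001889, was 292, 291 and 296 CPM in mutant-labelled libraries 1 to 3 and 299, 293 and 322 CPM in wild-type libraries 1 to 3. The mutant-labelled libraries lay close together, with only library 3 of them above wild-type library 2, and the wild-type spread was widened by library 3. The log2 fold change was −0.06 (SE 0.06, 95% interval −0.19 to 0.07; edgeR adjusted p = 0.913, or 0.535 with the block).

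Hdac1, on the minus strand of chromosome 4 from 129516104 to 129542713, was 57.5, 51.6 and 54.9 CPM in mutant-labelled libraries 1 to 3 and 60.2, 54.0 and 51.7 CPM in wild-type libraries 1 to 3. The groups covered nearly the same range, and library 1 was the highest in each genotype. Its log2 fold change was −0.02 (SE 0.08, 95% interval −0.20 to 0.16; edgeR adjusted p = 0.989), with no steady sign across settings. Of its 3536 distinct annotated 50-base stretches, 1121 also occur in Gm10093, so the Hdac1 count is uncertain where reads of such copies were split or dropped.

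Apbb1, on the minus strand of chromosome 7 from 105558483 to 105581653, was 281, 275 and 295 CPM in mutant-labelled libraries 1 to 3 and 305, 282 and 306 CPM in wild-type libraries 1 to 3. Within every number the mutant-labelled library was the lower one, but the groups overlapped. The log2 fold change of Apbb1 was −0.07 (SE 0.06, 95% interval −0.20 to 0.06; edgeR adjusted p = 0.879, or 0.403 with the block).

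Set, on the plus strand of chromosome 2 from 30057378 to 30072577, was 353, 341 and 346 CPM in mutant-labelled libraries 1 to 3 and 367, 350 and 368 CPM in wild-type libraries 1 to 3. Only mutant-labelled library 1 reached into the wild-type range. The log2 fold change of Set was −0.06 (SE 0.05, 95% interval −0.18 to 0.06; edgeR adjusted p = 0.887, or 0.498 with the block). Of the 4010 distinct 50-base stretches of annotated Set transcripts, 1174 also occur in transcripts of 13 other genes, 1031 of them in Gm9531, so its count carries the same uncertainty as that of Hdac1.

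**Figure D2:**
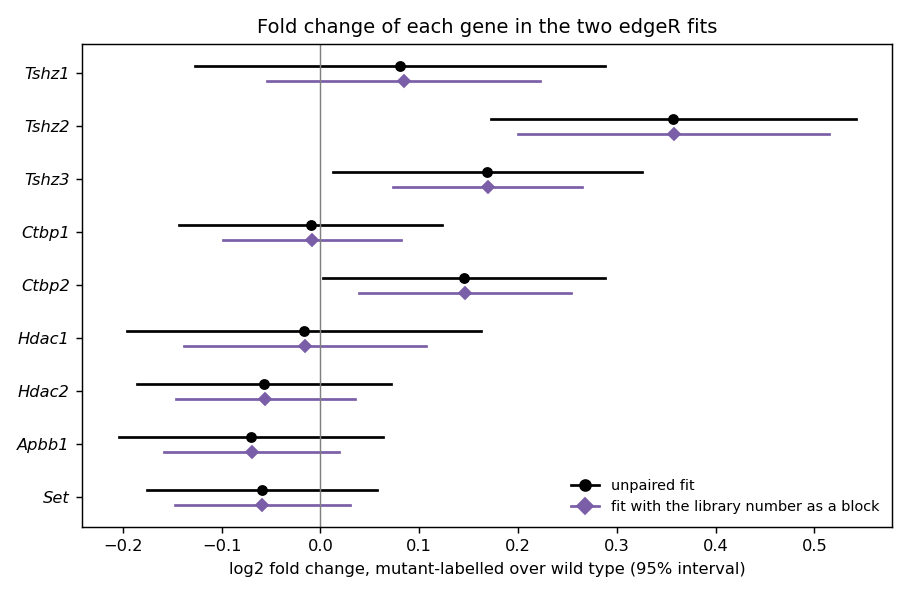
Log2 fold change of each of the 9 genes, mutant-labelled over wild type (horizontal axis), with 95% intervals from the unpaired fit (black circles) and from the fit with the library number as a block (purple diamonds). Estimates barely differ between the fits while every interval is narrower with the block, and Tshz2, at 0.36, lies farthest from 0.

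Counted over the 9 genes, 3 lay higher in every mutant-labelled library than in any wild-type library and 0 lay lower, where 7.42% and 6.09% of all genes tested did so. None of the 9 passed the unpaired test, which called 0.0752% of all genes tested, 11 of 14618. At an unadjusted p under 0.05 in edgeR, Tshz2, Tshz3 and Ctbp2 would pass, as would 7.09% of all genes tested, 1037 of 14618. DESeq2 also called 0 of the 9, with adjusted p = 0.0746 for Tshz2, and it called 0.641% of its genes, 98 of 15278. The block called Tshz2 alone, higher, and it called 3.46% of all genes tested, 506 of 14618. The median log2 fold change was −0.01 over the 9 genes and −0.01 over all genes tested. An exact two-sided permutation test over the libraries gave p = 0.1 for Tshz2, Tshz3 and Ctbp2, the smallest that 3 against 3 libraries allow, and 0.2 to 0.9 for the other 6.

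Differences within same-numbered libraries varied by gene. For Tshz3 the log2 difference, mutant-labelled minus wild type, was 0.19, 0.16 and 0.15 in pairs 1, 2 and 3. For Tshz2 it was 0.18, 0.45 and 0.45, and for Ctbp2 0.25, 0.11 and 0.08. Tshz3 thus had nearly the same difference in each pair, Tshz2 was least apart in pair 1, and Ctbp2 was most apart there. In all, 6 of the 9 genes kept 1 sign in the 3 pairs, and Tshz1, Ctbp1 and Hdac1 did not.

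**Figure D3:**
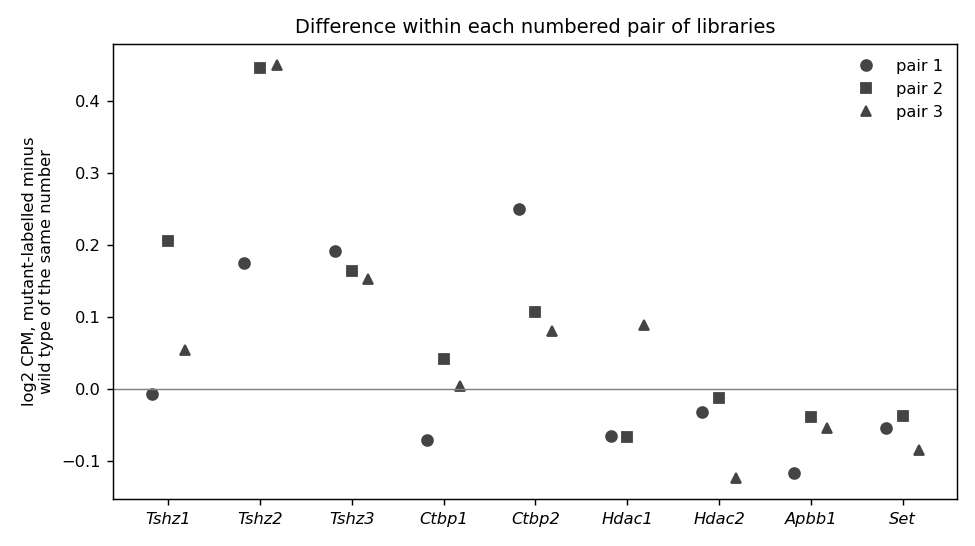
Difference in log2 CPM between the mutant-labelled and the wild-type library of the same number (vertical axis) for each of the 9 genes, with a symbol for each pair. Tshz2, Tshz3 and Ctbp2 are above 0 in all 3 pairs, and Hdac2, Apbb1 and Set are below 0 in all 3, down to −0.12.

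Levels were compared between genes as CPM per kilobase of merged annotated exons. Set was highest, at 85.2 ± 1.47 in mutant-labelled and 88.8 ± 2.39 in wild-type libraries (SD, n = 3 each). Hdac2, Apbb1 and Ctbp1 followed at 60.7 to 72.0 over all 6 libraries, and these 3 overlapped. Tshz3 was at 17.2 ± 0.874 in mutant-labelled and 15.3 ± 0.978 in wild-type libraries, and Hdac1, at 15.9 ± 0.856 in mutant-labelled and 16.1 ± 1.27 in wild-type libraries, overlapped it.

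Below them on this per-kilobase scale, Ctbp2 was at 13.0 ± 0.407 in mutant-labelled and 11.8 ± 0.653 in wild-type libraries. Tshz1 was at 7.35 ± 0.392 in mutant-labelled and 6.95 ± 0.716 in wild-type libraries. Tshz2, the lowest, was at 4.80 ± 0.273 in mutant-labelled and 3.74 ± 0.258 in wild-type libraries. Tshz3 was therefore the most abundant teashirt transcript in this tissue in all 6 libraries, and each cofactor other than Hdac1 and Ctbp2 was above it. The levels use all exons annotated in GENCODE M21, and a gene whose long exons are little used in cortex would appear too low.

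Counting error was compared with the spread between libraries. For Set, with 6752 to 8181 reads, counting alone gives an SD of 1.11% to 1.22% of the value, and the spread between libraries was 1.72% in mutant-labelled and 2.70% in wild-type libraries. For Tshz2, with 531 to 891 reads, counting gives 3.35% to 4.34%, and the spread was 5.69% in mutant-labelled and 6.90% in wild-type libraries. For Hdac2, with 5868 to 6967 reads, counting gives 1.20% to 1.31%, and the spread was 0.879% in mutant-labelled libraries, below the counting error, and 5.07% in wild-type libraries.

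Across the 6 libraries, the 5 genes closest to Tshz3 in pattern were Dnajc27, Snph, Hdhd2, Gid4 and Tmem168. Likeness was the root mean square difference between log2 CPM values, each gene centred on its own mean, and it was 0.02 to 0.03 for these 5 against a median of 0.15 over 12850 genes. Snph, which encodes syntaphilin, a docking protein for axonal mitochondria, was 62.5, 64.5 and 66.3 CPM in mutant-labelled libraries 1 to 3 and 55.6, 56.8 and 60.0 CPM in wild-type libraries 1 to 3. None of the 5 passed either edgeR fit, the lowest adjusted p being 0.102 for Snph with the block. They were picked for matching Tshz3, which passed neither fit, so this outcome is not a separate result. Of the other 8 genes described here, Ctbp2 was closest to Tshz3 at 0.08, rank 631 of 12850, and Hdac1 farthest at 0.16, rank 7118. A gene at the same level in all 6 libraries would score 0.11, the spread of Tshz3 around its own mean.

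The complexes through which these cofactors act were described with 7 further lists holding 111 tested genes. Casp4, the mouse relative of a caspase gene that FE65 and TSHZ3 repress in human cells, had 0 to 7 reads per library and was not tested. None of the 111 passed the unpaired edgeR test, and 2 had an unadjusted p under 0.05, which 7.09% of all genes tested had. DESeq2 also called 0 of them. With the block, 1 rose and 1 fell, and 109 did not pass, a share of 1.8% called against 3.46% of all genes tested. Their median log2 fold change was −0.02, and 5 genes were higher and 4 lower in every mutant-labelled library than in any wild-type one, where 7.42% and 6.09% of all genes tested were.

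Setbp1, which encodes a SET-binding protein, fell in the blocked fit by 0.26 on the log2 scale (SE 0.04, edgeR adjusted p = 0.00268; unpaired 0.763). It was 110, 142 and 126 CPM in mutant-labelled libraries 1 to 3 and 131, 175 and 148 CPM in wild-type libraries 1 to 3. The groups overlapped as sets, while each mutant-labelled library was below the wild-type library of its own number. The blocked call of Setbp1 was lost without pair 3 (edgeR adjusted p = 0.0876). Apba1, which encodes a neuronal adaptor that also binds the amyloid precursor protein, rose in the blocked fit by 0.15 (SE 0.04, edgeR adjusted p = 0.0491; unpaired 0.814). It was 162, 191 and 196 CPM in mutant-labelled and 149, 163 and 181 CPM in wild-type libraries 1 to 3, again ordered within each number but overlapping as groups. Its blocked call was lost without any 1 pair, with edgeR adjusted p = 0.0624 to 0.292.

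Among the 18 genes of the CtBP and LSD1 corepressor complex 0 passed either fit, and the list median was −0.02 on the log2 scale. The demethylase gene Kdm1a, which encodes LSD1, was 272 ± 7.07 CPM in mutant-labelled and 276 ± 4.55 CPM in wild-type libraries (SD, n = 3 each). Rcor3, a CoREST subunit gene, had the widest difference in the list, at −0.18 on the log2 scale (SE 0.12; adjusted p of 0.829 in edgeR). Of 13 NuRD genes and 14 Sin3 genes 0 passed either fit, with list medians of 0.02 and 0.02. In NuRD the methyl-CpG binding gene Mbd2 was at 0.18 on the log2 scale (SE 0.14), and in Sin3 Arid4a, which encodes a subunit that binds the retinoblastoma protein, was at 0.25 (SE 0.15; edgeR adjusted p = 0.813, or 0.0798 with the block).

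The 14 other histone deacetylase and NCoR genes had a median of −0.05 with 0 passing, and Tbl1xr1, an NCoR complex subunit gene, had the widest difference at −0.14 (SE 0.08). Of 14 FE65 family and APP pathway genes only Apba1 passed, in the blocked fit, and the list median was −0.01. App itself was 639 ± 36.3 CPM in mutant-labelled and 671 ± 64.1 CPM in wild-type libraries (SD, n = 3 each), and the FE65 relatives Apbb2 and Apbb3 had log2 fold changes of 0.07 and −0.02.

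The 16 genes for SET partners and histone chaperones had the lowest list median, −0.08, and Setbp1 alone passed, in the blocked fit. In that list Hmgb2, a chromatin protein gene of dividing cells, had the widest difference at −0.27 (SE 0.18, edgeR adjusted p = 0.832, or 0.0923 with the block). Of 22 BAF chromatin remodelling genes 0 passed either fit, the median was 0.02, and Dpf3 had the widest difference at −0.26 (SE 0.30) from a level of only 2.19 ± 0.416 CPM in mutant-labelled and 2.62 ± 0.978 CPM in wild-type libraries. Smarce1, whose product BAF57 is a partner of TSHZ3 in muscle precursors, was 245 ± 12.02 CPM in mutant-labelled and 237 ± 4.75 CPM in wild-type libraries.

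**Figure D4:**
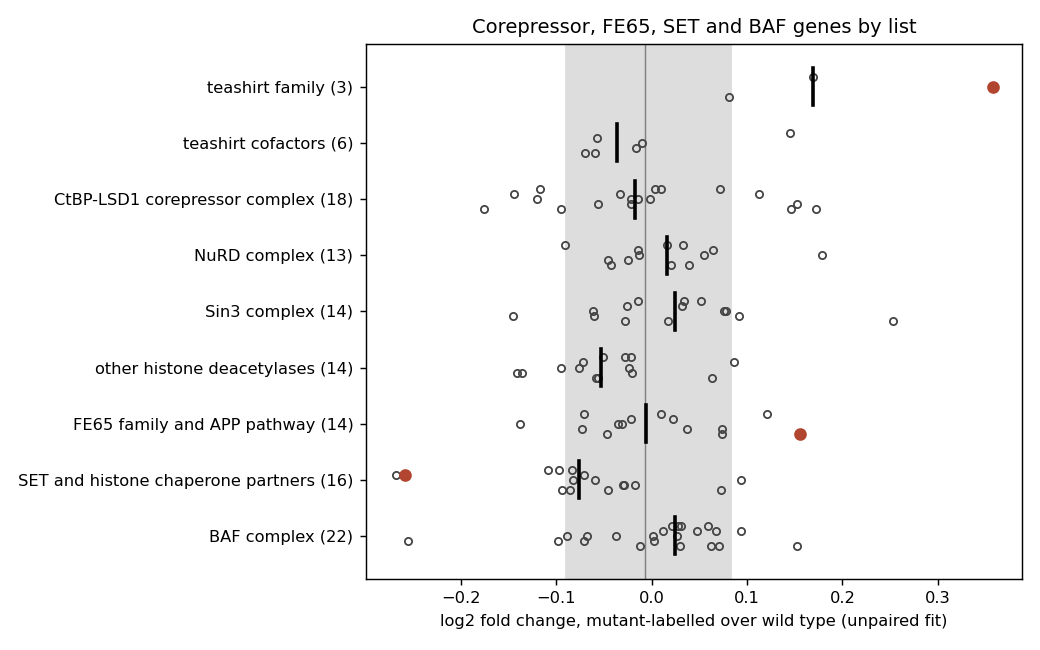
Unpaired log2 fold change, mutant-labelled over wild type (horizontal axis), of each tested gene in the teashirt, cofactor and complex lists, with the number of genes in brackets, a black bar at each list median, and filled red circles for genes past adjusted p of 0.05 in the blocked fit. The grey band spans the lower to upper quartile of all 14618 genes, −0.09 to 0.08, and the 3 red circles are Tshz2, Apba1 and Setbp1.

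Library totals ran from 19894144 to 24147810 reads in mutant-labelled and from 18569383 to 21052832 reads in wild-type libraries. All 12 neocortical projection neuron markers were detected, and their summed level was 2836 to 3105 CPM in mutant-labelled and 2696 to 3008 CPM in wild-type libraries, so the libraries carried the labelled tissue's defining genes. The 13 striatal markers summed to 245 to 262 CPM in mutant-labelled and 253 to 301 CPM in wild-type libraries. The 8 markers of olfactory bulb and dorsal ganglionic eminence summed to 155 to 173 CPM in mutant-labelled and 145 to 154 CPM in wild-type libraries, without overlap and so in the same direction as Tshz2, Tshz3 and Ctbp2. Of these 8, Eomes, Pax6 and Etv1 are also expressed in neocortex, Th and Tbx21 were at 0.125 to 1.56 CPM, and only Sp8 was itself without overlap, at 10.1 to 13.0 CPM in mutant-labelled and 7.73 to 9.81 CPM in wild-type libraries. The part of such cells in the teashirt values was not tested, and in bulk tissue fewer cells of a type and less RNA per cell cannot be told apart. The other marker lists overlapped between genotypes, and the 5 meningeal and fibroblast markers varied most, at 50.5 to 221 CPM in mutant-labelled and 38.5 to 276 CPM in wild-type libraries.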

How the data were processed

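The authors deposited 1 table of raw read counts per gene symbol, with no normalization, for 6 neocortex libraries. Per the labels' protocols, the total RNA was made into libraries with Illumina's TruSeq stranded kit. Build mm10 and the tools TopHat2 2.0.9, Bowtie2 2.1.0, HTSeq 0.5.3p9 and CASAVA 1.8.2 are named in the submitters' processing notes. Neither the gene annotation nor how strand was handled is given in the sources used here, so counts of genes with overlapping, antisense or near-identical partners are marked as uncertain.

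Columns were matched to samples by title. Counts were fitted with edgeR 4.0.16 in R 4.3.3 (TMM scaling, default expression filter, robust quasi-likelihood test, two-sided, Benjamini-Hochberg adjustment over 14618 genes, threshold 0.05), and standard errors were derived from the F statistic. Log2 CPM per library used a prior count of 2. The unpaired fit was primary. The fit with the library number as a block stands beside it because the deviations of same-numbered libraries from their group means correlated at 0.61, 0.51 and 0.47, each above 0.1. This pairing comes from the data, since the labels do not say what a number shares, and such correlations are not independent of each other. Libraries of 1 genotype differed beyond sampling noise (chi-square over its degrees of freedom, 7.13 to 23.1). P-values measure the spread between pools of embryos. The script was tested on simulated data with known changes.

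The 9 genes, the gene lists and the tests were chosen with earlier results of these data known. Named partner genes were those past the threshold in either fit, plus the widest unpaired change per list at a mean log2 CPM of at least 1. Kdm1a, App, Apbb2, Apbb3, Smarce1, Casp4 and Sp8 were added outside that rule after their values were seen, and Fgfr2 and A630075F10Rik because their exons overlap those of Ctbp2 and Tshz2. Gene positions, exon lengths and 50-base stretches come from GENCODE M21, and promoters from RefSeq (GRCm38.p6). Promoter windows were kept for 7 of the 9 genes. Windows on chromosome 18, which holds Tshz1, were left out beforehand, so whether Tshz1 was matched is not shown. Alternatives were other scalings, DESeq2 1.42.0, no filter on low counts, the block, and leaving out each library or pair.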

Additional observations from a re-analysis of the deposited data

How the results depend on the processing

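The log2 fold changes of the 9 genes were recomputed 126 times under alternative settings, of which 112 kept direction and side of the threshold, 9 reversed and 5 came to pass. Of 28 recomputed family shares 3 reversed, and of 42 recomputed counts of calls 18 moved, either by over 1.5 times or away from 0. The count of genes called was 11 and moved to 506 with the replicate block, 98 in DESeq2 and 20 without a filter on low counts. It was 3 to 35 with 1 library left out and 295, 1874 and 62 in the paired fit without pair 1, 2 or 3, each of which leaves 1 residual degree of freedom. Of the 9 genes, 0 passed unpaired, 1 with the replicate block and 0 to 3 in the paired fit with 1 pair left out. Of the 111 partner genes, 0 passed unpaired, 2 with the replicate block and 0 to 13 with 1 pair left out. The 3 and the 13 came from the paired fit without pair 2, which called 1874 of 14628 genes. They are therefore not read as a result about these genes. Without pair 1 the fit called 1 of the 9 genes and 1 partner gene, beside 295 of 14547 genes. Without pair 3 it called 0 and 0, beside 62 of 14719 genes.

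Tshz2 had a log2 fold change of 0.36 with the replicate block, where it passed, and between 0.31 and 0.45 with a library or pair left out. Tshz3 was between 0.12 and 0.22 and Ctbp2 between 0.09 and 0.18 over those fits, and in the paired fit without pair 2 both passed, at 0.172 and 0.167. Tshz1 ranged from −0.00048, without wild-type library 2, to 0.14. Ctbp1 ranged from −0.0504 to 0.0214 with 1 library left out, and was 0.0226 in the paired fit without pair 1 and 0.00057 with library totals only. Hdac1 ranged from −0.0643 to 0.046 with 1 library left out, and was 0.00983 and 0.00924 in the paired fit without pair 1 or 2. None of these 3 genes had a steady sign. Hdac2, Apbb1 and Set stayed below 0 in all 15 fits without passing in any, from −0.08 to −0.02 for Hdac2, whose value nearest to 0 came without wild-type library 3, from −0.11 to −0.05 for Apbb1 and from −0.08 to −0.04 for Set. The Tshz3 share of teashirt reads, mutant-labelled minus wild type, was −0.60 percentage points and ranged from −1.99 to 0.527, and the Hdac1 share was 0.348 and ranged from −0.435 to 1.04. The cause of these shifts was not tested. At 531 to 891 reads, Tshz2 had the widest counting error of the 9 genes.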
